A study of Mus musculus with 7 samples.

Results

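The 10 genes described here encode proteins that hold β-cells together, couple them to their neighbours or let them sense cell contact: Cdh1, Cdh2, Ctnnb1, Gjd2, Tjp1, Cldn4, Epcam, Ncam1, Epha5 and Efna5. They were taken by symbol from a table of 35013 genes, and all 10 passed the filter on low counts in each of the 3 comparisons. RNA was measured in cells labelled as sorted β-cells, of 2 KO_db/db, 2 db/db and 3 db/+ mice, with 1 library per mouse. The db/+ mice were lean and the others carried 2 mutant alleles of the leptin receptor, which gives obesity and diabetes. The paper reports that KO_db/db mice kept fasting glucose near the db/+ level and were below db/db mice after refeeding. The transgene RIP-Cre Herr and 1 copy of the reporter (tdT fl/+) were present in all 7 mice. At Aldh1a3 the KO_db/db mice were fl/fl, and thus lacked both working copies where Cre had acted, while the db/db and db/+ mice were fl/+. At Lepr the lean mice were db/+ and the other 4 were db/db. The rat insulin promoter drives this Cre in β-cells, and since each mouse also had at least 1 floxed Aldh1a3 allele, the controls could recombine 1 allele too. Mice of this study were 16 to 20 weeks old unless stated otherwise, of both sexes, and fasted for 16 hours before islets were isolated. The gate that gave these libraries is not stated in the sources used here.

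Cells of an islet are joined by cadherins, which bind each other across the gap between cells and are tied to the actin skeleton by β-catenin. Gap junction channels of connexin 36, the product of Gjd2, let current pass between β-cells so that they fire in step and release insulin in pulses. Tight junction proteins seal and polarise the membrane, EPCAM and NCAM1 are further adhesion proteins of epithelial and neuroendocrine cells, and ephrin-A ligands and their EphA receptors signal between β-cells that touch.

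Library totals ran from 27496645 to 35852785 counts. Aldh1a3, the floxed gene, stood at 4.97 and 7.89 CPM (counts scaled to a common library size) in KO_db/db, 98.4 and 194 CPM in db/db, and 0.205, 0.0729 and 0.589 CPM in db/+. CPM here are scaled by TMM, a method that sets the typical gene equal between libraries. The TMM factors were 0.869 to 0.874 in db/+, 1.20 and 1.23 in db/db, and 0.886 and 1.15 in KO_db/db, so scaling matters: without the factors, the log2 fold change of the median gene was 0.50 for db/db and 0.21 for KO_db/db against db/+, and -0.28 for KO_db/db against db/db. Every fold change below is therefore relative to the typical gene. The summed level of 10 β-cell markers was 395156 to 442753 CPM in db/+, 201612 to 224995 CPM in db/db and 225589 to 297817 CPM in KO_db/db, and none of them was at 0 in any library. The summed level of 24 acinar markers was 137901 CPM in KO_db/db mouse 1 and 11475 CPM in KO_db/db mouse 2, against 398 and 226 CPM in db/db and 80.1 to 244 CPM in db/+. The part of acinar RNA in the genes described below was not tested. An alternative that leaves out these 24 genes does not remove acinar RNA of other genes. Only db/+ mouse 3 had a summed level of 4 Y-linked genes above 3 CPM, at 100.8 CPM. In bulk RNA of this kind, fewer cells of a type and less RNA per cell cannot be told apart.

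In db/db against db/+, Cdh2 and Ncam1 rose, while Ctnnb1, Gjd2, Cldn4 and Epha5 fell. A gene is said to pass, or to be called, when its edgeR p, taken from the quasi-likelihood F-test and adjusted after Benjamini-Hochberg, is under 0.05. Thus 6 of the 10 passed, 2 higher and 4 lower, where 37.8% of all 13406 genes tested passed (19.9% higher and 18% lower). The values of 9 of the 10 did not overlap between these groups, 4 higher and 5 lower, against 63.3% of all genes (32.6% higher and 30.7% lower). Without the scaling factors the count was also 6, but with 5 higher and 1 lower, where 50.5% of all genes were called, 5971 higher and 801 lower. Between KO_db/db and db/+, 6 of 10 passed, with 5 rises and 1 fall, where 38.4% of 13228 genes passed (20.5% higher and 17.9% lower). There 8 did not overlap, 5 of them higher, against 64.1% of all genes (31.7% higher and 32.5% lower). Between KO_db/db and db/db, edgeR called 0 of 10, where 0.319% of 13486 genes passed (0.126% higher and 0.193% lower). Of the 10, 3 had an unadjusted p under 0.05, against 20.9% of all genes. DESeq2 called 2 of the 10, against 9.59% of all genes. The values of 7 did not overlap between KO_db/db and db/db, 6 of them higher in KO_db/db, against 57.5% of all genes (28.4% higher and 29.1% lower). The median log2 fold change of the 10 genes was -0.37 for db/db and 0.42 for KO_db/db against lean mice and 0.26 for KO_db/db against db/db, with medians over all genes between -0.02 and 0.01. The comparisons of db/db and of KO_db/db with db/+ share the 3 db/+ libraries.

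**Figure D1:**
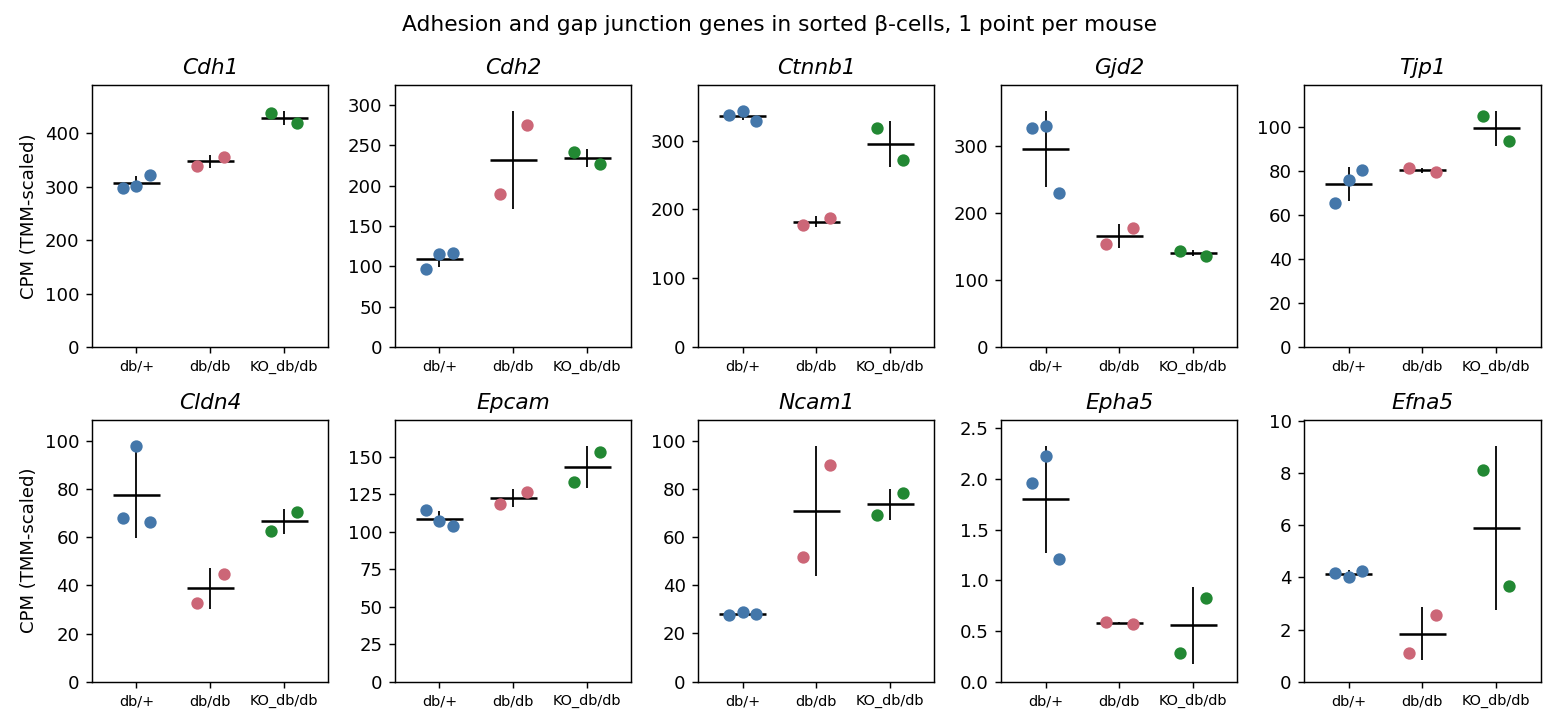
TMM-scaled CPM of the 10 genes, 1 point per mouse, with the mean (horizontal line) and SD (vertical line) of each group; each panel has its own axis from 0. Cdh2 and Ncam1 are higher in db/db and in KO_db/db than in db/+, and Gjd2 is lower in both. Ctnnb1 and Cldn4 are lower in the 2 db/db mice than in each of the other 5.

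Of the cadherins, Cdh1 (E-cadherin, the main epithelial cadherin) was the most abundant per length of the 16 followed here. This set was chosen and leaves out Cdh5 and Cdh19, which were taken as markers of other cell types. It took 69.6% of their CPM per kb of exon in db/+, 66.9% in db/db and 68.5% in KO_db/db. Its level was 297, 301 and 322 CPM in db/+, 339 and 356 CPM in db/db, and 438 and 419 CPM in KO_db/db. After TMM scaling, these groups lay in steps, with no overlap between any pair of them and a spread within a group of at most 1.08-fold. In counts per library total, without the scaling factors, KO_db/db and db/db overlapped. Cdh1 was higher in KO_db/db than in db/+ by a log2 fold change of 0.49 (SE 0.11, adjusted p = 0.0163 by edgeR). The differences of the neighbouring groups did not pass the same test, with 0.17 (SE 0.11, adjusted p = 0.256 by edgeR) for db/db against db/+ and 0.30 (SE 0.16, adjusted p = 0.344 by edgeR) for KO_db/db against db/db. Leaving out KO_db/db mouse 1, db/+ mouse 1 or db/+ mouse 2 ended the call of Cdh1 in KO_db/db against db/+, with edgeR adjusted p of 0.0629, 0.0684 and 0.0549 and log2 fold changes of 0.46 to 0.48. Without the scaling factors, Cdh1 was also called higher in db/db against db/+ (0.66, adjusted p = 0.00312 by edgeR). Over the 11 alternatives for KO_db/db against db/db, its log2 fold change ran from 0.039 to 0.33. Cdh1 lies on chromosome 8 (GRCm38, chr8:106603351-106670246, plus strand).

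Cdh2 (N-cadherin, the cadherin of neural and mesenchymal cells that β-cells also carry) was second among the 16. Its level was 97.1, 115 and 116 CPM in db/+, 189 and 275 CPM in db/db, and 242 and 227 CPM in KO_db/db. All 4 db/db and KO_db/db mice were above all 3 lean mice, and the KO_db/db values lay inside the db/db range. The log2 fold change was 1.07 in db/db against db/+ (SE 0.18, adjusted p = 0.00481 by edgeR), 1.11 in KO_db/db against db/+ (SE 0.11, adjusted p = 0.00120 by edgeR) and 0.01 in KO_db/db against db/db (SE 0.22, adjusted p = 0.981 by edgeR). Both calls against db/+ held under all 12 alternatives.

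The balance of these 2 cadherins does not depend on the scaling of a library, since it is a ratio of counts within one. Cdh1 had 3.06, 2.61 and 2.78 times the counts of Cdh2 in db/+, 1.79 and 1.30 times in db/db, and 1.81 and 1.85 times in KO_db/db. Each lean mouse was above each db/db and each KO_db/db mouse, and Cdh1 still exceeded Cdh2 in all 7.

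Ctnnb1 (β-catenin, which links cadherins to the actin skeleton and also carries Wnt signals) had 337, 342 and 329 CPM in db/+, 177 and 188 CPM in db/db, and 319 and 271 CPM in KO_db/db. Both db/db mice were far below the other 5, and the KO_db/db mice came close to db/+ without reaching its range. The fall in db/db against db/+ was 1.86-fold (log2 fold change -0.90, SE 0.11, adjusted p = 0.00164 by edgeR), and it was called under all 12 alternatives. Against db/db, the log2 fold change in KO_db/db was 0.69 (SE 0.16, adjusted p = 0.127 by edgeR; 0.00134 by DESeq2), a difference that edgeR called with all 7 libraries in one fit (adjusted p = 0.0311) and without the filter on low counts (adjusted p = 0.0314). Against db/+ it was -0.18 (SE 0.12, adjusted p = 0.274 by edgeR). Ctnnb1 lies at chr9:120929216-120960507 on the plus strand, where Ulk4 and 4930593C16Rik overlap it on the other strand; whether counting used strand is not given in the sources used here, so reads of overlapping genes may have been shared.

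**Figure D2:**
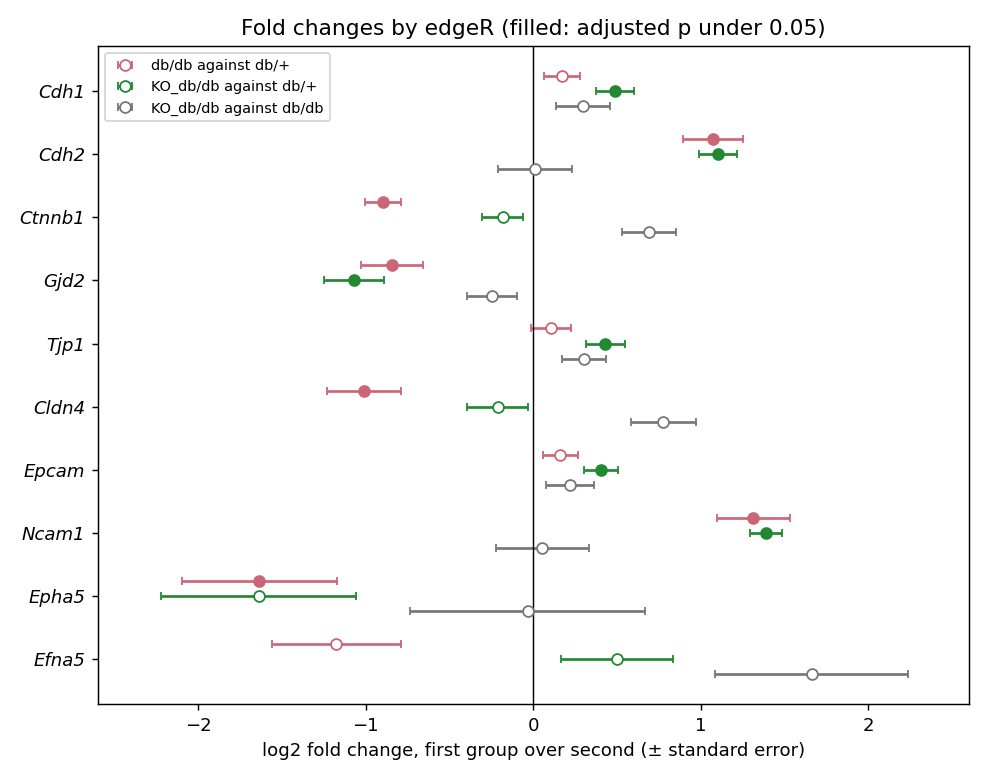
Log2 fold change ± standard error of the 10 genes in the 3 comparisons, by edgeR; filled points have an adjusted p under 0.05. No point of KO_db/db against db/db is filled, and Gjd2, Cdh2 and Ncam1 are filled on the same side of 0 in both comparisons with db/+.

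Gjd2 (connexin 36) was by far the most abundant connexin. Of 20 connexins measured, 17 stayed under 1 CPM in all 7 libraries, and Gjd2 took 99.9% of the family's CPM per kb of exon in db/+, 99.3% in db/db and 92.4% in KO_db/db. Its level was 327, 329.9 and 229.7 CPM in db/+, 153 and 178 CPM in db/db, and 144 and 137 CPM in KO_db/db. The lean mice were all above the db/db and KO_db/db mice, and the KO_db/db mice were the lowest of the 7. The lowest lean value belonged to db/+ mouse 3, the mouse with Y-linked counts, whose part in it was not tested. Gjd2 fell 1.79-fold in db/db against db/+ (log2 fold change -0.84, SE 0.19, adjusted p = 0.0137 by edgeR) and 2.10-fold in KO_db/db against db/+ (-1.07, SE 0.18, adjusted p = 0.00545 by edgeR). It was not called in KO_db/db against db/db (-0.25, SE 0.15, adjusted p = 0.391 by edgeR). The call in KO_db/db against db/+ held under all 12 alternatives. That in db/db against db/+ was lost without db/db mouse 1 (-0.74, adjusted p = 0.0589 by edgeR) and without the scaling factors (-0.35, adjusted p = 0.159 by edgeR). Without db/+ mouse 3 it was -0.995 in db/db against db/+ (adjusted p = 0.00585 by edgeR).

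Set against Cdh1 in the same library, a ratio that no scaling factor enters, Gjd2 had 1.10, 1.10 and 0.713 times the counts of Cdh1 in db/+, 0.451 and 0.501 times in db/db, and 0.328 and 0.326 times in KO_db/db. The 3 genotypes did not overlap, with db/+ highest and KO_db/db lowest. Gjd2 lies at chr2:114009601-114013619 on the minus strand and is overlapped on the other strand by A530058N18Rik.

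**Figure D3:**
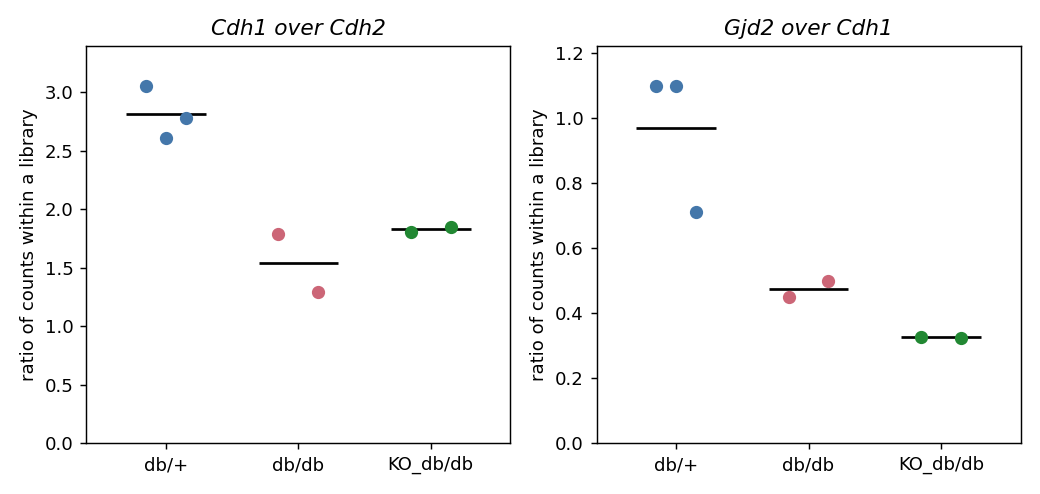
Ratio of the counts of Cdh1 to Cdh2 (left) and of Gjd2 to Cdh1 (right) within each library, 1 point per mouse, with a line at the group mean; both axes start at 0. Cdh1 over Cdh2 is 2.61 to 3.06 in db/+ and 1.30 to 1.85 in the db/db and KO_db/db mice. Gjd2 over Cdh1 falls from db/+ through db/db to KO_db/db.

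Gjb1 and Gjb2, connexins of exocrine and other epithelial cells, were seen almost only in KO_db/db. Gjb1 had 5.38 and 0.607 CPM in KO_db/db, 0 and 0.143 CPM in db/db and 0 in all 3 db/+ libraries. Gjb2 had 7.63 and 0.874 CPM in KO_db/db, 0 and 0.0478 CPM in db/db and 0, 0 and 0.0346 CPM in db/+. Both passed the test in KO_db/db against db/+ (adjusted p = 0.0158 for Gjb1 and 0.00543 for Gjb2, by edgeR), but Gjb1 did not without KO_db/db mouse 1 (adjusted p = 0.0631 by edgeR). Acinar markers differed 12.02-fold between the KO_db/db libraries, in the same direction as Gjb1 and Gjb2. After TMM scaling, with factors of 0.886 and 1.15, Gjd2 differed 1.05-fold and Cdh1 1.04-fold between these libraries. The part of acinar RNA in Gjb1, Gjb2, Gjd2 and Cdh1 was not tested. No fold is given, since the other groups were at or near the floor of 3 counts, 0.0717 to 0.123 CPM.

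**Figure D4:**
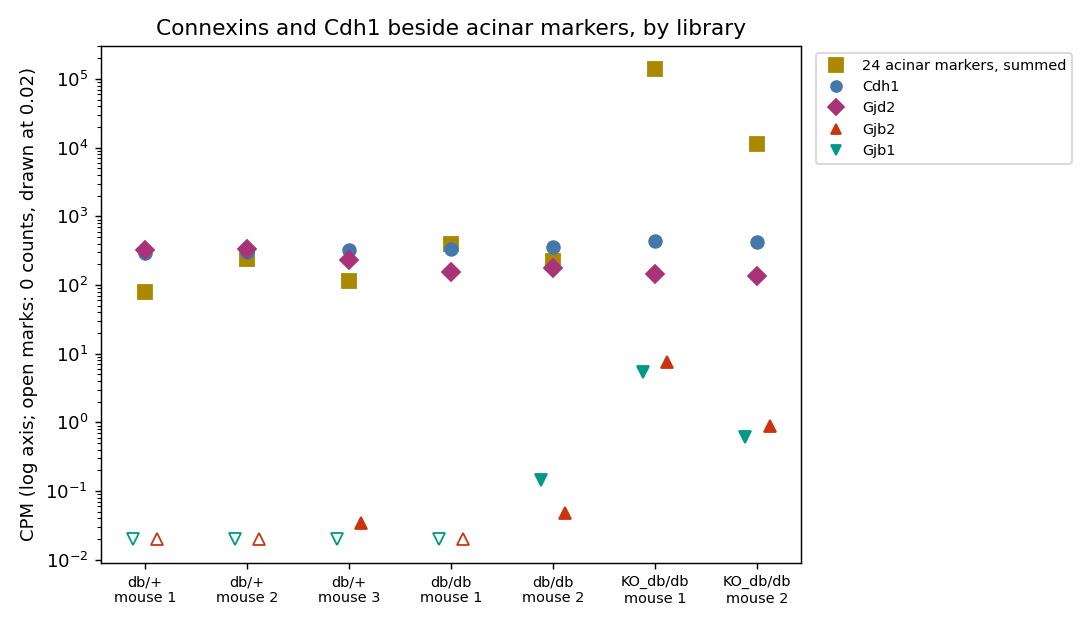
TMM-scaled CPM (log axis) of 24 acinar markers summed and of Cdh1, Gjd2, Gjb1 and Gjb2 in each of the 7 libraries; open marks are 0 counts, drawn at 0.02. The acinar sum and Gjb1 and Gjb2 are highest in KO_db/db mouse 1 and next in KO_db/db mouse 2. After TMM scaling, Cdh1 and Gjd2 are nearly level between those libraries.

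Of the tight junction genes, Tjp1 (ZO-1, the scaffold under tight junctions and connexin plaques) had 65.4, 75.9 and 80.5 CPM in db/+, 81.1 and 79.3 CPM in db/db, and 105 and 93.8 CPM in KO_db/db. After TMM scaling, the db/db mice overlapped the lean range, and both KO_db/db mice were above the other 5. In counts per library total, without the scaling factors, KO_db/db mouse 1 was below both db/db mice. Over the 11 alternatives for KO_db/db against db/db, the log2 fold change of Tjp1 ran from 0.040 to 0.39. The log2 fold change was 0.43 in KO_db/db against db/+ (SE 0.12, adjusted p = 0.0258 by edgeR), 0.11 in db/db against db/+ (SE 0.12, adjusted p = 0.519 by edgeR) and 0.30 in KO_db/db against db/db (SE 0.13, adjusted p = 0.264 by edgeR). The call of Tjp1 was lost without KO_db/db mouse 1 (0.35, adjusted p = 0.138 by edgeR), db/+ mouse 1 (adjusted p = 0.0723) or db/+ mouse 2 (adjusted p = 0.0649). Without the scaling factors Tjp1 was also called higher in db/db against db/+ (0.60, adjusted p = 0.00661 by edgeR).

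Cldn4 (claudin 4, a membrane protein of the tight junction strand) had 68.1, 97.9 and 66.3 CPM in db/+, 32.6 and 44.8 CPM in db/db, and 62.7 and 70.3 CPM in KO_db/db. As for Ctnnb1, both db/db mice were below the other 5, whereas the KO_db/db mice overlapped db/+. Cldn4 fell 2.01-fold in db/db against db/+ (log2 fold change -1.01, SE 0.22, adjusted p = 0.0132 by edgeR). That call was lost without db/db mouse 1 (-0.80, adjusted p = 0.0535 by edgeR) and without the scaling factors (-0.52, adjusted p = 0.0956 by edgeR). Against db/db, the KO_db/db value was 0.78 (SE 0.19, adjusted p = 0.135 by edgeR; 0.0108 by DESeq2; 0.0120 by edgeR without the filter on low counts). Against db/+ it was -0.21 (SE 0.18, adjusted p = 0.393 by edgeR). Among 15 claudins, Cldn4 had the highest mean CPM per kb of exon in db/+ (42.6, against 18.7 for Cldn7). In db/db its mean was 21.3 CPM per kb, below the 24.6 of Cldn3. Cldn4 lies at chr5:134945119-134946934 on the minus strand and Tjp1 at chr7:65296165-65527781 on the minus strand.

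The 250 bases before the start of the genes that fell in db/db against db/+ are shown for Ctnnb1, Gjd2 and Cldn4, the most abundant of the 4, so that the sequence can be read beside their values. They were read from RefSeq on GRCm38.p6, 5′ to 3′ along the strand of the gene, for Ctnnb1 from chr9:120933150-120933399 (plus), for Gjd2 from chr2:114013620-114013869 (minus) and for Cldn4 from chr5:134946935-134947184 (minus). RefSeq's start of Ctnnb1 is not the first base of the GENCODE gene at 120929216, which belongs to another transcript, and RefSeq lists a further start of Ctnnb1 whose window is chr9:120933328-120933577. Capitals mark CAGGTG or its reverse complement CACCTG, the E-box known to be bound by Snail and Zeb repressors of epithelial genes, and GGGCGG or its reverse complement CCGCCC, the GC box; the marked matches do not overlap each other.
Ctnnb1: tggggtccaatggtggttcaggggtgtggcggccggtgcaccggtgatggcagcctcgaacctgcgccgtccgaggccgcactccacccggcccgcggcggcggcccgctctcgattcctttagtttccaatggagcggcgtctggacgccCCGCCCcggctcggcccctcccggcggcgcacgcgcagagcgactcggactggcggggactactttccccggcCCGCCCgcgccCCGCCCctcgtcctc
Gjd2: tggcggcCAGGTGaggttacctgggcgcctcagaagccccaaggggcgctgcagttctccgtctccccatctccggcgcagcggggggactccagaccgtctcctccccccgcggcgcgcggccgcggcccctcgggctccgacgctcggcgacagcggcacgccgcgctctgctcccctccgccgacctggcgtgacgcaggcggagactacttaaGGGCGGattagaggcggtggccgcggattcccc
Cldn4: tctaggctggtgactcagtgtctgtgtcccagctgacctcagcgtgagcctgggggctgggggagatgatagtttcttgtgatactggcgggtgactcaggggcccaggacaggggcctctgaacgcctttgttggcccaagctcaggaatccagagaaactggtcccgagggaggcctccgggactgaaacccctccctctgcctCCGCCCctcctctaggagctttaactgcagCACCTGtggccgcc
The E-box was found 1 time before Gjd2, 1 time before Cldn4 and not before Ctnnb1, and is in 17.2% of 32851 promoter windows of this length. Of the other genes whose window was read, Epcam, which did not fall, held 2, and Epha5, which fell, Efna5 and Tjp1 held 0. Windows of Cdh1, Cdh2 and Ncam1 are not reported here. GC boxes numbered 3 before Ctnnb1 (2 in its other window, which also holds TATAAA, found in 12.4% of windows), 1 before Gjd2 and 1 before Cldn4, and 32.7% of windows hold at least 1. A match is a description of letters and says nothing of binding.

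Epcam and Ncam1 encode adhesion proteins of other families. Epcam (EPCAM, of epithelial cells) had 115, 107 and 104 CPM in db/+, 118 and 127 CPM in db/db, and 133 and 153 CPM in KO_db/db. After TMM scaling these were again steps without overlap. In counts per library total, without the scaling factors, KO_db/db and db/db overlapped. Over the 11 alternatives for KO_db/db against db/db, the value for Epcam ran from -0.021 to 0.32 (log2). The log2 fold change was 0.40 in KO_db/db against db/+ (SE 0.10, adjusted p = 0.0211 by edgeR), 0.16 in db/db against db/+ (SE 0.10, adjusted p = 0.259 by edgeR) and 0.22 in KO_db/db against db/db (SE 0.15, adjusted p = 0.427 by edgeR). The call of Epcam was lost without KO_db/db mouse 2 (0.29, adjusted p = 0.114 by edgeR) or db/+ mouse 2 (adjusted p = 0.0674), and without the scaling factors Epcam was also called higher in db/db against db/+ (0.65, adjusted p = 0.00267 by edgeR). Epcam lies at chr17:87635979-87651129 on the plus strand.

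Ncam1 (NCAM1, an immunoglobulin-family protein of neurons and islet cells) had 27.8, 28.8 and 28.1 CPM in db/+, 51.6 and 89.9 CPM in db/db, and 69.0 and 78.2 CPM in KO_db/db. The lean mice were almost identical, and each db/db and KO_db/db mouse was well above them. Ncam1 rose 2.49-fold in db/db against db/+ (log2 fold change 1.32, SE 0.22, adjusted p = 0.00501 by edgeR) and 2.62-fold in KO_db/db against db/+ (1.39, SE 0.09, adjusted p = 0.000635 by edgeR), both under all 12 alternatives. In db/db against db/+ its size rested on the mouse used, at 0.85 without db/db mouse 2 and 1.66 without db/db mouse 1. KO_db/db differed from db/db by 0.05 (SE 0.28, adjusted p = 0.927 by edgeR). The summed level of 7 Schwann-cell and neuronal markers was 49.0 and 22.5 CPM in db/db mice 1 and 2, 24.8 and 24.4 CPM in KO_db/db mice 1 and 2 and 25.0 to 28.3 CPM in db/+. The part of RNA from such cells in Ncam1 was not tested. Ncam1 lies at chr9:49502136-49798925 on the minus strand, with Gm11149 on the other strand.

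Epha5 and Efna5, a receptor and a ligand of the A class, were the least abundant of the 10. Epha5 had 1.96, 2.22 and 1.21 CPM in db/+ (48, 61 and 35 counts), 0.587 and 0.573 CPM in db/db (20 and 24 counts), and 0.287 and 0.825 CPM in KO_db/db (7 and 34 counts). The db/db and KO_db/db mice were all below the lean mice, and at such counts the values of KO_db/db spread 2.87-fold. Epha5 fell 3.11-fold in db/db against db/+ (log2 fold change -1.64, SE 0.46, adjusted p = 0.0315 by edgeR). That call was lost without db/db mouse 1, db/db mouse 2, db/+ mouse 1 or db/+ mouse 2 (adjusted p of 0.0907 to 0.1004 by edgeR), in the fit of all 7 libraries (adjusted p = 0.0581) and without the scaling factors (adjusted p = 0.0795). The value in KO_db/db against db/+ was -1.64 (SE 0.58, adjusted p = 0.0652 by edgeR; 0.0335 by DESeq2; 0.0479 by edgeR without the filter on low counts), and it moved to -2.63 with a call without KO_db/db mouse 2 (adjusted p = 0.0401 by edgeR). Epha5 lies at chr5:84054761-84417382 on the minus strand.

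Efna5 had 4.17, 4.01 and 4.26 CPM in db/+, 1.12 and 2.56 CPM in db/db, and 8.13 and 3.66 CPM in KO_db/db. Both db/db mice were below the other 5, and the KO_db/db mice lay on either side of the lean values. The log2 fold change was -1.18 in db/db against db/+ (SE 0.39, adjusted p = 0.0504 by edgeR and 0.0201 by DESeq2). EdgeR called this fall without the filter on low counts (adjusted p = 0.0254) and without the acinar markers (adjusted p = 0.0492). The value was 1.66 in KO_db/db against db/db (SE 0.58, adjusted p = 0.203 by edgeR, and 0.0194 by edgeR without the filter on low counts). In KO_db/db against db/+ it was 0.50 (SE 0.34, adjusted p = 0.276 by edgeR). Without db/db mouse 2, Efna5 was called lower in db/db against db/+ (-1.91, adjusted p = 0.0102 by edgeR). Without KO_db/db mouse 1, Efna5 was -0.17 in KO_db/db against db/+, and without KO_db/db mouse 2 it was 0.96. The cause of this difference was not tested. Per kb of exon, Efna5 ranked after Efnb1 and Efna2 among 8 ephrins in db/+ (1.03 CPM per kb), and Epha5 ranked after 4 of the 14 Eph receptors (0.108 CPM per kb). Efna5 lies at chr17:62604184-62881317 on the minus strand.

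The genes around these 10 were followed in 8 lists of 159 genes in all. In db/db against db/+, 43 of the 89 that could be tested passed, 24 higher and 19 lower, with a median log2 fold change of 0.25, where 37.8% of all genes passed, 2662 higher and 2407 lower; without the scaling factors 45 were higher and 6 lower, against 5971 and 801 over all genes. Of the tight junction and polarity genes 10 were lower and 4 higher of 23, of the β-catenin partners and Wnt targets 7 were higher and 3 lower of 17, and of the adherens junction genes 5 were higher and 4 lower of 17. For the rest, 6 of 17 immunoglobulin-family and other adhesion genes passed (5 higher), 2 of 6 Eph receptors passed (1 each way), and none of 5 ephrins nor of 2 connexins and pannexins passed, with 1 and 0 of them at an unadjusted p under 0.05. For KO_db/db against lean mice, 49 of 93 passed, with 38 rises and 11 falls, with a median of 0.59, where 38.4% of all genes passed, 2712 higher and 2369 lower. There 10 adherens junction genes were higher and 3 lower of 17, and all 8 β-catenin partners and Wnt targets that passed, of 17, were higher. The tight junction and polarity genes had 8 higher and 6 lower of 26, the immunoglobulin-family and other adhesion genes 5 higher and 1 lower of 17, the Eph receptors 1 each way of 5, the ephrins 2 higher of 5, and the connexins and pannexins 3 higher of 4. None of the 96 tested between KO_db/db and db/db passed by edgeR, where 0.319% of all genes did; 32 were at an unadjusted p under 0.05, against 20.9% of all genes, and 14 were called by DESeq2, against 9.59% of all genes.

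**Figure D5:**
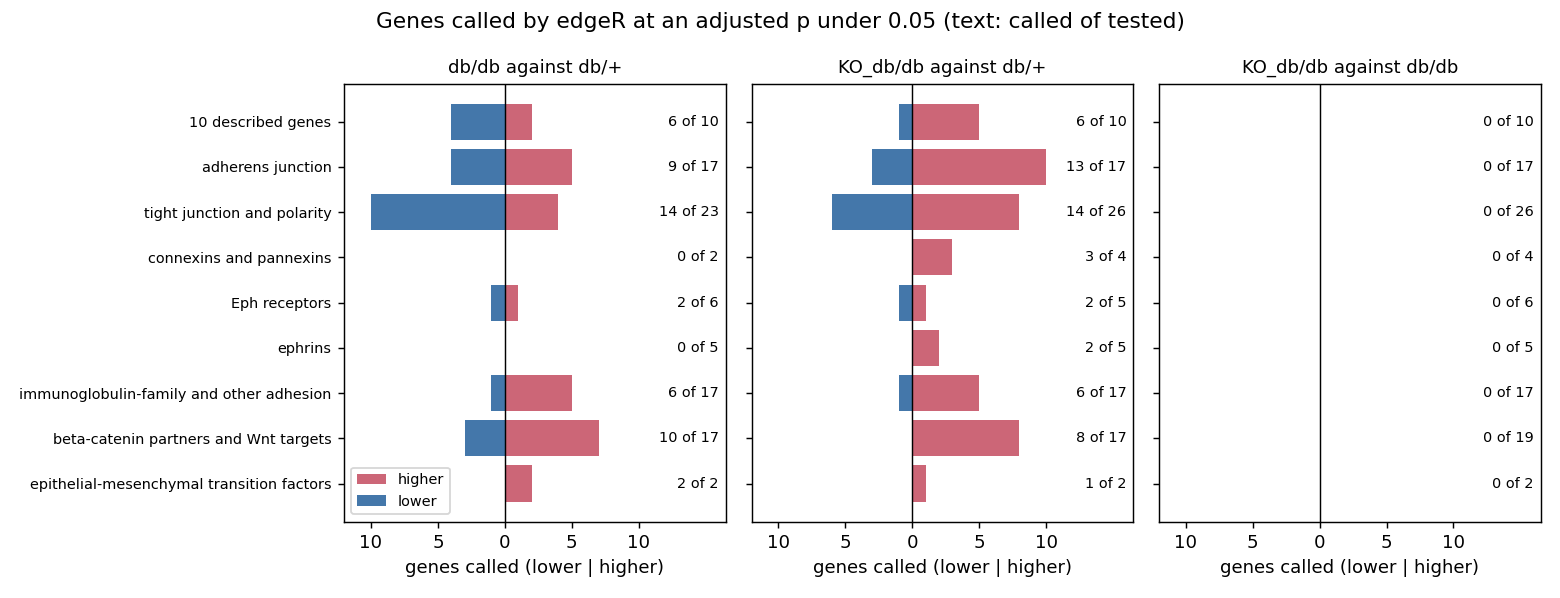
Number of genes called by edgeR at an adjusted p under 0.05 in each list, higher to the right and lower to the left of 0, in the 3 comparisons; the text at the right gives the genes called of those tested. Tight junction and polarity genes have 10 falls in db/db against db/+, adherens junction genes have 10 rises in KO_db/db against db/+, and no gene is called in KO_db/db against db/db.

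Other cadherins differed in direction. Cdh4, named after its values were seen, rose like Cdh2, from 6.06, 4.12 and 7.10 CPM in db/+ to 26.3 and 21.9 CPM in db/db and 16.2 and 15.8 CPM in KO_db/db (log2 fold changes of 2.05 and 1.48, adjusted p = 0.00153 and 0.00419 by edgeR). Cdh7, a type II cadherin of the nervous system, had 18.6, 19.1 and 14.2 CPM in db/+, 0.792 and 0.645 CPM in db/db, and 2.95 and 3.08 CPM in KO_db/db. It fell in db/db against db/+ (log2 fold change -4.60, SE 0.24, adjusted p = 0.000253 by edgeR) and in KO_db/db against db/+ (-2.51, SE 0.19, adjusted p = 0.000693 by edgeR), and the 2.07 of KO_db/db against db/db did not pass (SE 0.39, adjusted p = 0.0968 by edgeR; 0.00441 by DESeq2). Cdh8, of the same type, had 77.8, 58.0 and 72.7 CPM in db/+, 13.8 and 19.9 CPM in db/db, and 52.6 and 42.1 CPM in KO_db/db. Its 3 genotypes did not overlap, with KO_db/db between the others (-2.06 in db/db against db/+, SE 0.21, adjusted p = 0.00112 by edgeR; 1.49 in KO_db/db against db/db, SE 0.23, adjusted p = 0.0844 by edgeR; 1.48e-06 by DESeq2).

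Claudins differed among themselves. Cldn3 had 15.5, 15.3 and 14.1 CPM in db/+, 29.9 and 32.1 CPM in db/db, and 31.8 and 28.9 CPM in KO_db/db, a rise of 1.04 (log2, SE 0.12, adjusted p = 0.00145 by edgeR) in db/db against db/+. Cldn12 had 50.8, 55.8 and 46.0 CPM in db/+, 30.4 and 31.0 CPM in db/db, and 18.8 and 25.5 CPM in KO_db/db, a log2 fold change of -0.74 (SE 0.12, adjusted p = 0.00449 by edgeR) that was not called without the scaling factors (-0.25, adjusted p = 0.131 by edgeR). Jam2 and Tjp3, a junctional adhesion molecule and a scaffold, also fell in db/db against db/+ (-0.77 and -0.98, adjusted p = 0.0330 and 0.0109 by edgeR), calls likewise lost without the scaling factors. That of Jam2 was also lost without either db/db mouse, db/+ mouse 1 or db/+ mouse 3 (adjusted p of 0.0593 to 0.0993 by edgeR). Between KO_db/db and db/db they stood at 1.12 and 1.10 (adjusted p = 0.0805 and 0.122 by edgeR; 8.82e-06 and 0.0207 by DESeq2).

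Among the partners of β-catenin, Apc, a scaffold of the complex that marks it for breakdown, had 16.2, 15.8 and 21.2 CPM in db/+, 69.96 and 68.8 CPM in db/db, and 70.1 and 63.0 CPM in KO_db/db. It rose by 1.95 (log2, SE 0.15, adjusted p = 0.000590 by edgeR) in db/db against db/+. Bcl9l, a coactivator of β-catenin, rose by 1.63 in the same comparison (adjusted p = 0.000899 by edgeR) and by 1.70 in KO_db/db against db/+ (adjusted p = 0.000928 by edgeR). Tcf7l1, a DNA-binding partner that often represses, had 2.95, 2.84 and 4.92 CPM in db/+, 41.2 and 13.9 CPM in db/db, and 6.77 and 5.75 CPM in KO_db/db. Both db/db mice were above the other 5 but 2.96-fold apart, and the change was 2.93 against db/+ (adjusted p = 0.00427 by edgeR). In KO_db/db against db/db Tcf7l1 stood at -2.14, not called by edgeR but called by DESeq2 (adjusted p = 0.000181). Over the alternatives this value ran from -2.73 to -1.16. Btrc, which tags β-catenin for breakdown, was lower in db/db against db/+ by the test (-0.42, adjusted p = 0.0298 by edgeR), with 0.075 and no call without the scaling factors, and no call without db/db mouse 1 or any 1 of the 3 db/+ mice (adjusted p of 0.0645 to 0.105).

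Zeb1, a repressor of Cdh1 in other epithelia, had 3.36, 4.52 and 3.70 CPM in db/+, 8.60 and 8.74 CPM in db/db, and 9.60 and 7.96 CPM in KO_db/db. Against db/+ it was higher in db/db (1.15, adjusted p = 0.00567 by edgeR) and in KO_db/db (1.19, adjusted p = 0.00615 by edgeR). Zeb1 and Snai2 were the 2 of 7 epithelial-mesenchymal transition factors abundant enough to test, and Snai2, at 0.205 to 1.23 CPM, was called higher in db/db against db/+ only.

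Of the neuronal-type adhesion genes, Nfasc (neurofascin) and Alcam were higher in db/db against db/+ by 1.58 and 1.13 (adjusted p = 0.00126 and 0.00251 by edgeR). Nlgn2, a neuroligin, an adhesion protein of synapses that also occurs in islets, had its highest values in KO_db/db. It had 36.6, 32.1 and 38.5 CPM in db/+, 37.2 and 57.0 CPM in db/db, and 86.6 and 81.8 CPM in KO_db/db, and rose by 1.24 in KO_db/db against db/+ (adjusted p = 0.000759 by edgeR). In KO_db/db against db/db Nlgn2 stood at 0.83, not called by edgeR but called by DESeq2 (adjusted p = 0.0123).

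Of the other receptors and ligands, Epha7 had the highest mean CPM per kb of exon among the Eph receptors in db/+ and fell in db/db (-1.84, adjusted p = 0.00336 by edgeR) and in KO_db/db (-1.24, adjusted p = 0.00625 by edgeR) against db/+. Epha1 rose in db/db against db/+ (1.55, adjusted p = 0.00994 by edgeR; 0.0515 without db/db mouse 1). Efna1 had 0.727 to 1.17 CPM in db/+ and 1.82 to 2.59 CPM in db/db and KO_db/db mice. There was a call in KO_db/db against db/+ (1.41, adjusted p = 0.0247 by edgeR) and none in db/db against db/+ (1.21, adjusted p = 0.0520 by edgeR, 0.0353 by DESeq2 and 0.0293 by edgeR with all 7 libraries in one fit). The first of these was lost without KO_db/db mouse 1, KO_db/db mouse 2 or db/+ mouse 1 (adjusted p of 0.0684 to 0.105 by edgeR). Ephb6, Efna2, Efnb3 and the channel gene Panx1 passed in none of the 3 comparisons, and the related Panx2 passed in KO_db/db against db/+ (0.64, adjusted p = 0.0401 by edgeR), a call lost with any 1 library left out (adjusted p of 0.0679 to 0.128) and without the filter on low counts (adjusted p = 0.0813).

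The genes most like Cdh1 and Gjd2 across the 7 libraries were sought by the root mean square difference of centred log2 CPM among 7809 genes with a mean of at least 10 CPM. For Cdh1 they were Sqstm1 (0.039), Tnks (0.040) and Slain1 (0.040). For Gjd2 they were Rbm4b (0.101), Desi1 (0.122) and Lyplal1 (0.124). These are descriptions over 7 libraries that share their depth and scaling.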

How the data were processed

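Libraries of sorted β-cells from 7 mice were grouped by the genotype their labels give. The authors prepared poly-A RNA and deposited estimated counts per gene, rounded to whole numbers and not normalized; per the submitters' processing notes, bcl2fastq 2.19 and kallisto 0.44.0 with GRCm38 were used. Kallisto shares reads among near-identical transcripts, and the annotation release is not given in the sources used here. From the deposited estimated counts, 2 groups at a time were fitted, without the rest, in R 4.3.3 with edgeR 4.0.16 (filterByExpr with a minimum count of 10, TMM, quasi-likelihood test, Benjamini-Hochberg over all genes tested, threshold 0.05). SEs were obtained from the F statistic and the fold change. For CPM, TMM factors came from all 7 libraries together, and levels per kb used GENCODE exon lengths, whose GRCm38 coordinates are given. DESeq2 1.42.0, which the study's methods name, was an alternative. The fits were tested on simulated data, only for changes larger than most reported here, in genes with ample counts and with 1 fixed spread between libraries. That test does not cover small changes or low counts such as those of Epha5. Nothing says whether mice shared a cage, litter or sort day. The 10 genes, the lists and the rule for named genes (all 10; in each list, among genes of at least 1 CPM, the 2 with the smallest p for db/db against lean mice and for KO_db/db against db/db; 3 most like Cdh1 and Gjd2) were chosen with earlier results of these data known; Snai2 and Cdh4 were named after their values were seen, and 1 gene that the rule names is not reported here. Library totals ran from 27496645 to 35852785, so precision at low levels is limited by counting, with 3 counts taken as the floor. Alternatives were RLE factors, DESeq2, no filter, all 7 libraries in one fit, a replicate block, no acinar markers, each library left out and, chosen after seeing the data, no scaling factors.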

Additional observations from a re-analysis of the deposited data

How the results depend on the processing

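The number of the 10 genes called in KO_db/db against db/db was 0 by edgeR on these groups alone, 2 by DESeq2, 3 without the filter on low counts and 1 with all 7 libraries in one fit. The list genes called there were 0, 14, 17 and 10 in the same order, 10 without scaling factors, and 0 to 2 with one library left out; over all genes the calls were 43, 1371, 1570, 818 and 1220, and 0 to 225. With one library left out, the genes called were 3 to 6 of 10 in db/db against db/+ (3 without db/db mouse 1) and 3 to 7 in KO_db/db against db/+ (3 without db/+ mouse 2), where 25.0% to 32.8% and 22.3% to 36.4% of all genes were called. Leaving out 1 of 2 libraries leaves 1, which is assumed to vary like the other group.

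Mouse numbers are shared between groups, and deviations of same-numbered mice from their group means had correlations of -0.102 to 0.0759. In a group of 2 libraries these deviations mirror each other. The correlations thus hold few independent values and cannot settle whether same-numbered mice are paired. With the mouse number as a replicate block, 6, 0 and 3 of the 10 genes were called in db/db against db/+, KO_db/db against db/db and KO_db/db against db/+, the calls of Cdh1, Tjp1 and Epcam, and of the list genes Panx2 (adjusted p = 0.0944) and Efna1 (adjusted p = 0.0923), being lost in the last and those of Jam2 (adjusted p = 0.0525) and Btrc (adjusted p = 0.0654) in the first; over all genes there were 4516, 22 and 3786 calls, against 5069, 43 and 5081, and Efnb3 was at -0.0016 in KO_db/db against db/+.

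Without scaling factors, the values that changed sign were Efna2 (0.049) and Btrc (0.075) in db/db against db/+; Cdh2 (-0.25), Epcam (-0.021), Ncam1 (-0.19), Efna1 (-0.079), Nfasc (-0.18), Bcl9l (-0.23) and Zeb1 (-0.26) in KO_db/db against db/db; and Ctnnb1 (0.019), Cldn4 (0.015) and Panx1 (0.0498) in KO_db/db against db/+. With one library left out, KO_db/db against db/db gave -0.23 to 0.31 for Cdh2, -1.002 to 0.51 for Epha5, -0.29 to 0.51 for Ncam1, -0.14 to 0.23 for Bcl9l, -0.12 to 0.15 for Zeb1, -0.10 to 0.039 for Cldn3, -0.14 to 0.017 for Apc and -0.028 to 0.44 for Efna1. KO_db/db against db/+ gave -0.17 to 0.96 for Efna5, -0.10 to 0.70 for Efnb3, -0.042 to 0.30 for Tjp3, -0.25 to 0.49 for Epha1, -0.030 to 0.31 for Efna2, -0.017 to 0.075 for Btrc and -0.47 to 0.067 for Panx1. The causes of these changes were not tested. With 2 or 3 mice a group and 7 to 61 counts for Epha5, small differences were not detectable.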
